A study of Mus musculus with 2 samples.

Results

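Genes of adrenergic, cAMP and cGMP signalling were compared between hearts of MHC403/+ mice, which carry a missense mutation of the cardiac myosin heavy chain and model hypertrophic cardiomyopathy (HCM), and hearts of wild-type (WT) mice. The members were all entries of the deposited table whose symbol names an adrenergic receptor, adenylyl cyclase, phosphodiesterase, protein kinase A subunit, cGMP-dependent kinase, A-kinase anchoring protein, RGS protein (Rgs5, a pericyte marker, excepted) or guanylyl cyclase, together with the receptor kinases Adrbk1 and Grk5. They numbered 102 of 30385 entries. There was 1 library of MHC403/+ hearts and 1 of WT hearts, both from 129/SvEv mice aged 8 to 16 weeks. Both genotypes had received CsA (cyclosporine A, which blocks the phosphatase calcineurin) subcutaneously, dissolved in PBS, at 15 mg/kg in 2 daily injections over 2 weeks. Each library was a pool of biological replicates, the number of animals not being given in the sources used here, so no difference has a replicate check and no test across genotypes was possible. With no untreated library, an effect of the genotype cannot be told apart from a response to the drug that differs by genotype. The assay, 5′RNA-seq, sequences intact polyA RNA without fragmentation, and its reads cluster near the starts of transcripts.

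Noradrenaline and adrenaline act on the heart through beta receptors, which couple to the stimulatory G protein and adenylyl cyclase, and through alpha-1 receptors, which couple to Gq. Cyclic AMP releases the catalytic subunits of protein kinase A from its regulatory subunits, and A-kinase anchoring proteins hold the kinase beside its substrates in the sarcoplasmic reticulum, the nuclear envelope or the mitochondrion. Phosphodiesterases break down cAMP and cGMP in distinct compartments, receptor kinases and RGS proteins shorten the signal, and guanylyl cyclases and cGMP-dependent kinases carry the responses to nitric oxide and natriuretic peptides.

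The read total was 5468677 in MHC403 and 5481123 in WT. Values are reads, or RPM (reads per 1000000 reads of the library), and ratios are MHC403 over WT scaled by these totals, with exact (Clopper-Pearson) 95% counting intervals in parentheses. The intervals cover counting error only, not differences among animals, pooling or amplification. Entries that reach 50 reads in either library are called measured, which left 9507 entries in all. Of the 102 members 38 were measured, 13 had 20 to 49 reads in the higher library, 36 had 1 to 19, and 15 had none in either library. At 50 reads in each library a ratio of 1 has a counting interval of 0.662 to 1.51, so smaller differences were not detectable for genes near the minimum. Reads from the mitochondrial chromosome took 13.7% of the MHC403 library and 29.5% of the WT library, and the median log2 ratio of all measured entries was 0.57. Results are therefore also given with median-of-ratios scaling, which lowers each log2 ratio by 0.55, where that changes which genes pass 2-fold. A log2 ratio between 0 and 0.55 with library totals is thus below 0 with that scaling. In bulk heart RNA fewer cells of a type and less RNA per cell cannot be told apart. Coordinates of the deposited table are on the mm9 build.

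Most of the measured signalling genes lay within 2-fold between the libraries, and the exceptions lay in 3 families. In the MHC403 library 7 of the 38 measured members were at least 2-fold higher: the anchoring proteins Akap2, Akap12 and Akap13, the cyclase Adcy7, and Pde4b, Pde8a and Pde12. Pde7a was the single member at least 2-fold lower. The 7 members made up 18.4% of those measured, beside 26.1% of all measured entries, and the 1 lower member 2.63%, beside 2.43%. The median log2 ratio of the members was 0.33, against 0.57 over all measured entries. The counting interval lay wholly above 1 in 19 members (50%, beside 63.2% of all measured entries) and wholly below 1 in 4 (10.5%, beside 10.3%), which were Adcy6, Akap1, Pde4a and Pde7a. Of the measured members 33 had at least 50 reads in both libraries. Adcy7, Pde12, Pde8a and Pde7b passed the minimum through the MHC403 library alone and Pde7a through the WT library alone, so their being measured is not independent of their ratio.

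**Figure D1:**
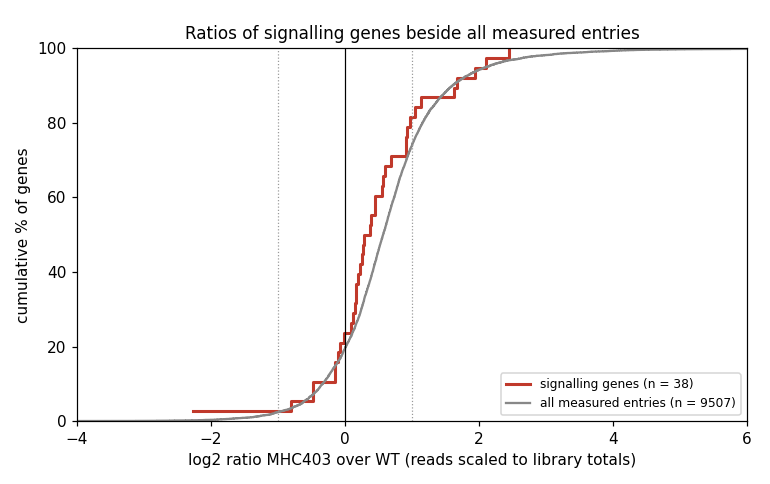
Cumulative percentage of genes (vertical axis) by log2 ratio MHC403 over WT of reads scaled to library totals (horizontal axis), for the 38 measured signalling genes and all 9507 measured entries; dotted lines mark 2-fold. The line of the signalling genes, with a median of 0.33, lies to the left of that of all entries, with a median of 0.57, over the middle of the range.

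The split depended on the scaling. With median-of-ratios scaling 5 members were at least 2-fold higher (Adcy7, Akap2, Pde12, Pde4b and Pde8a) and 4 lower (Adcy6, Akap1, Pde4a and Pde7a), beside 10.9% and 7.59% of all measured entries. The median of the members then became -0.22 and that of all entries 0.02. The distance between both medians was -0.24 under either scaling, because a scaling moves all genes alike. Akap12 and Akap13 were past 2-fold with library totals only.

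**Figure D2:**
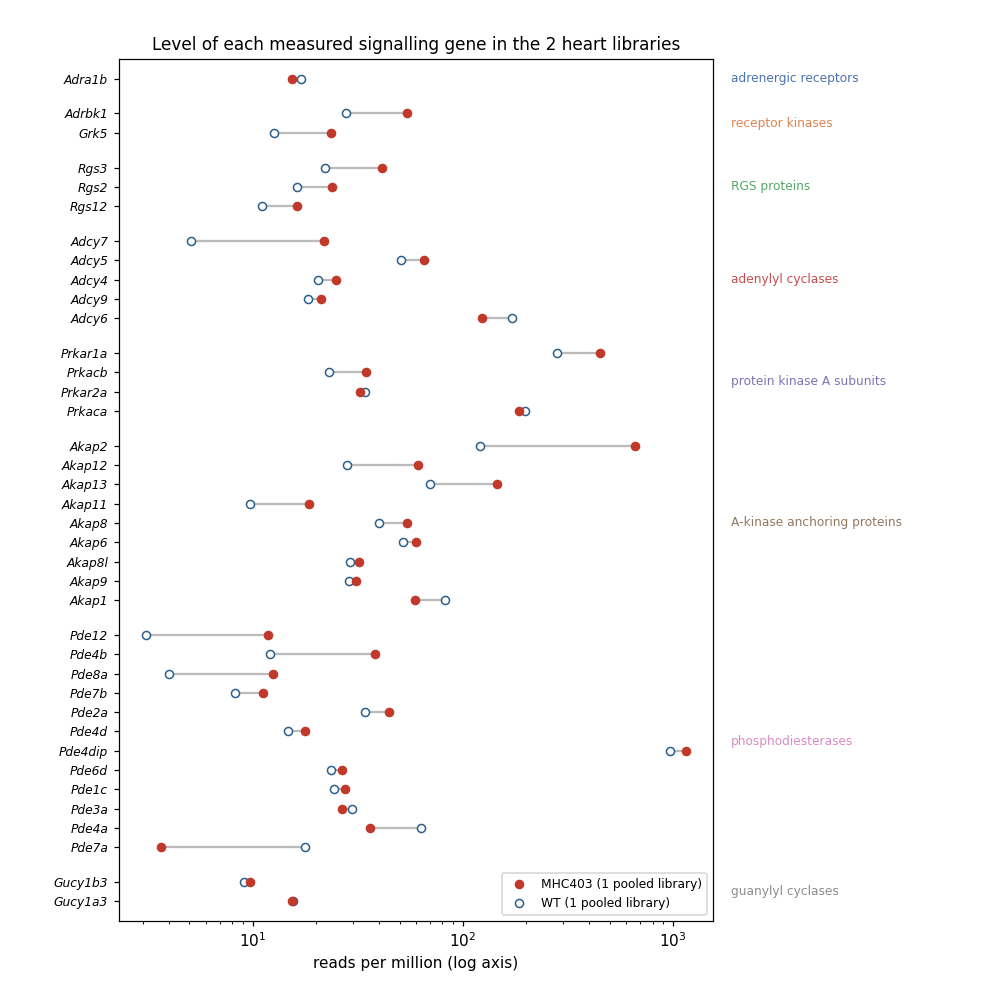
Level of each of the 38 measured members in RPM (horizontal log axis) in the MHC403 library (filled points) and the WT library (open points), grouped by family, with lines joining the 2 values of a gene. Akap2 has the widest gap of the 38 genes, at 660 RPM in MHC403 and 120.4 RPM in WT, while points of the receptor Adra1b and both guanylyl cyclase subunits nearly coincide.

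Adrenergic receptors gave few reads, nearly as many in one library as in the other with library totals. The 9 receptor genes summed to 189 reads in MHC403 and 186 in WT, a ratio of 1.02 (0.827 to 1.25). Adra1b, an alpha-1 receptor coupled to Gq (chromosome 11, 43588108 to 43714712), was the only measured one, with 84 reads in MHC403 and 93 in WT, a ratio of 0.905 (0.666 to 1.23). The beta-1 receptor Adrb1, the main catecholamine receptor of heart muscle (chromosome 19, 56796862 to 56799352), had 36 reads in MHC403 and 37 in WT, a ratio of 0.975 (0.599 to 1.59). With these counts a difference of the size of those bounds could not be seen. The alpha-1 receptor Adra1a had 32 reads in MHC403 and 42 in WT. Adrb3, the beta-3 receptor, had none in either library. The 3 alpha-2 receptors, which couple to the inhibitory G protein, summed to 18 reads in MHC403 and 4 in WT. Of those reads Adra2b had 15 in MHC403 and 1 in WT, a ratio of 15.0 (2.31 to 633) that rests on a single WT read.

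Both receptor kinases among the members were higher by a similar margin. Adrbk1, which encodes the kinase GRK2 that phosphorylates activated beta receptors (chromosome 19, 4286001 to 4305955), had 297 reads in MHC403 and 152 in WT, a ratio of 1.96 (1.61 to 2.40). Grk5, a kinase of the same family that also acts in the nucleus, had 129 reads in MHC403 and 69 in WT, a ratio of 1.87 (1.39 to 2.55). Both lay just below 2-fold with intervals that excluded 1, and their log2 ratios were 0.42 and 0.36 with median-of-ratios scaling. Of all measured entries 63.2% had an interval above 1. Grk6, another kinase of the family and not a member, had 76 reads in MHC403 and 56 in WT, a ratio of 1.36 (0.951 to 1.96).

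RGS proteins speed the return of G proteins to their inactive state. Of 21 listed members 3 were measured and none was past 2-fold. All 3 had intervals above 1, beside 63.2% of all measured entries. Rgs3 had 226 reads in MHC403 and 121 in WT, a ratio of 1.87 (1.49 to 2.35). Rgs2, which limits Gq signals, had 131 reads in MHC403 and 89 in WT, a ratio of 1.48 (1.12 to 1.95), and Rgs12 had 89 in MHC403 and 61 in WT, a ratio of 1.46 (1.04 to 2.06). With median-of-ratios scaling the log2 ratios of Rgs2 and Rgs12 were 0.01 and 0.00. Among members under the minimum, values lay on both sides. Rgs10 had 43 reads in MHC403 and 14 in WT, Rgs19 44 in MHC403 and 13 in WT, and Rgs17 21 in MHC403 and 5 in WT. Rgs4, an inhibitor of Gi and Gq signals, had 28 reads in MHC403 and 38 in WT, and Rgs6, which acts with muscarinic receptors in pacemaker and atrial cells, 25 in MHC403 and 36 in WT. Rgs7 had 13 reads in MHC403 and 1 in WT, but its windows overlap those of a second entry of the same name in capitals.

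Reads of adenylyl cyclases, the enzymes that make cAMP, were nearly equal in sum with library totals and differed in isoform. The 10 cyclase genes had 1461 reads in MHC403 and 1485 in WT, a ratio of 0.986 (0.917 to 1.06). Adcy6, which with Adcy5 is the main cyclase of heart muscle and is inhibited by calcium (chromosome 15, 98420421 to 98438064), had 678 reads (124.0 RPM) in MHC403 and 943 (172 RPM) in WT, 1.39-fold (1.26 to 1.53) lower. Adcy5 had 358 reads in MHC403 and 278 in WT, 1.29-fold (1.10 to 1.52) higher. Thus the paired muscle isoforms lay on opposite sides of 1 with library totals. With median-of-ratios scaling both were lower, at log2 ratios of -1.02 for Adcy6 and -0.18 for Adcy5.

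Adcy7, a calcium-independent cyclase prominent in blood cells (chromosome 8, 90796302 to 90853861), had 120 reads (21.9 RPM) in MHC403 and 28 (5.11 RPM) in WT, 4.30-fold (2.83 to 6.73) higher. The count covers all 5 of its listed starts. Adcy4 and Adcy9 had ratios of 1.22 (0.941 to 1.58) and 1.16 (0.882 to 1.53). Adcy3, under the minimum, had 41 reads in MHC403 and 10 in WT.

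Shares of reads within a family do not depend on how libraries are scaled. Adcy6 made up 46.4% of cyclase reads in MHC403 (exact binomial 95% interval 43.8 to 49) and 63.5% in WT (61.0 to 66.0). Adcy5 made up 24.5% in MHC403 (22.3 to 26.8) and 18.7% in WT (16.8 to 20.8). Adcy7 took 8.21% in MHC403 (6.86 to 9.74) and 1.89% in WT (1.26 to 2.71). For the other measured cyclases the intervals of the libraries overlapped: Adcy4 took 9.31% in MHC403 (7.87 to 10.9) and 7.54% in WT (6.25 to 9.0), and Adcy9 took 7.94% in MHC403 (6.60 to 9.45) and 6.73% in WT (5.51 to 8.13). Adcy5 and Adcy6 together accounted for 70.9% of cyclase reads in MHC403 and 82.2% in WT. The order of levels between genes depends on whether reads are divided by length. Adcy6 had more reads than Adcy5 in both libraries. Per kilobase of the listed 5′ windows, Adcy5 had 164 RPM and Adcy6 107 RPM in MHC403. In WT, Adcy5 had 127 RPM and Adcy6 149 RPM per kilobase. These windows span 400 bases for Adcy5, with 1 listed start, and 1154 bases for Adcy6, with 3. The RNA was not fragmented, so this division may lower genes with more listed starts. That the reads were counted in these windows is not stated in the sources used here.

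**Figure D3:**
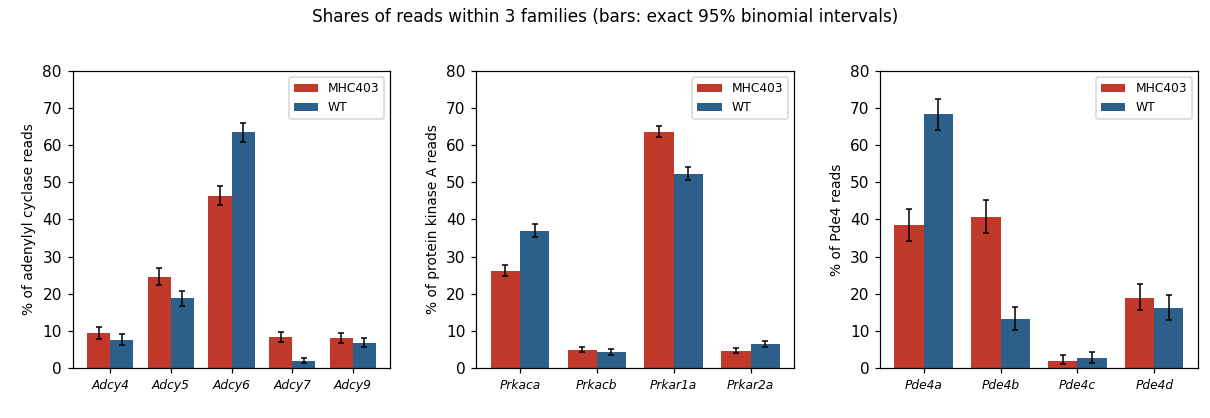
Percentage of the reads of a family (vertical axes) that each gene took in the MHC403 library (left bar of each pair) and the WT library (right bar), for adenylyl cyclases, protein kinase A subunits and Pde4 genes; error bars are exact 95% binomial intervals of counting. Adcy6 stands at 46.4% in MHC403 and 63.5% in WT, and Pde4a and Pde4b stand at 38.4% and 40.7% in MHC403 and 68.3% and 13.1% in WT.

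In protein kinase A the regulatory subunit Prkar1a was higher relative to the catalytic subunit Prkaca. Prkar1a encodes the type I alpha regulatory subunit, which holds catalytic subunits inactive until cAMP binds (chromosome 11, 109511822 to 109530962). It had 2469 reads (451 RPM) in MHC403 and 1544 (282 RPM) in WT, 1.60-fold (1.5 to 1.71) higher. Prkaca, the alpha catalytic subunit, had 1015 reads in MHC403 and 1089 in WT, a ratio of 0.934 (0.857 to 1.02). The beta catalytic subunit Prkacb had 190 reads in MHC403 and 126 in WT, 1.51-fold (1.20 to 1.91) higher, and the type II alpha regulatory subunit Prkar2a had 178 in MHC403 and 187 in WT, a ratio of 0.954 (0.773 to 1.18). Prkar1b had 12 reads in MHC403 and 1 in WT, and Prkar2b 12 in MHC403 and 4 in WT.

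Summed over both types, regulatory subunits had 2671 reads in MHC403 and 1736 in WT, a ratio of 1.54 (1.45 to 1.64), and catalytic subunits 1205 in MHC403 and 1215 in WT, a ratio of 0.994 (0.917 to 1.08). The quotient of regulatory over catalytic reads was therefore 1.55-fold (1.40 to 1.72) higher in MHC403, at 2.22 in MHC403 and 1.43 in WT, and this comparison is free of the library scaling. Prkar1a made up 63.7% of all reads of the kinase in MHC403 (62.2 to 65.2) and 52.3% in WT (50.5 to 54.1). With median-of-ratios scaling the log2 ratio of Prkar1a was 0.13 and that of Prkaca -0.65. Both then lie lower by the same shift, and the distance between them is the same.

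Promoter sequences were looked up for the members. Of the 102 members 78 had at least 1 promoter in a RefSeq table on GRCm38.p6, each 250 bases before to 50 bases after a start, which gave 134 promoters. The cAMP response element (CRE), the binding site of CREB family factors, was searched as the palindrome TGACGTCA and as its core TGACG on either strand, the core being contained in the palindrome. The palindrome was found in 2 of the 134 promoters (1.49%), beside 1.79% of all 32851 promoters in the table, and the core in 30 (22.4%), beside 20.8%. Both promoters with the palindrome belong to Prkar1a and overlap, so they hold the same match. These are matches of letters and not sites shown to bind a factor.

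This Prkar1a promoter, 1 of 6 in RefSeq, is shown because it holds the palindrome; its start was not matched to the 2 starts of the deposited table. In it the palindrome begins at position -49 relative to the start (chr11:109650699-109650998, GRCm38.p6, plus strand). The Pde8a promoter (chr7:81213015-81213314, plus strand) is that of a 3.10-fold higher gene and the Adrb1 promoter (chr19:56721867-56722166, plus strand) that of the beta-1 receptor, and each is the single promoter of its gene in both tables. The core begins at position -84 in Pde8a and at -90 in Adrb1. Capitals mark the core TGACG or its reverse complement, which join in the palindrome of Prkar1a.
Prkar1a: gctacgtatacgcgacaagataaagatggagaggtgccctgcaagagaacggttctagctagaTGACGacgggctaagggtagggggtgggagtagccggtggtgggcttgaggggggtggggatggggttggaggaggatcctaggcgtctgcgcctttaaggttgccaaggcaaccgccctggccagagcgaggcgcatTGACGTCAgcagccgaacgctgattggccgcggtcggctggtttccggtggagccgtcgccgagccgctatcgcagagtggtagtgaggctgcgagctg
Pde8a: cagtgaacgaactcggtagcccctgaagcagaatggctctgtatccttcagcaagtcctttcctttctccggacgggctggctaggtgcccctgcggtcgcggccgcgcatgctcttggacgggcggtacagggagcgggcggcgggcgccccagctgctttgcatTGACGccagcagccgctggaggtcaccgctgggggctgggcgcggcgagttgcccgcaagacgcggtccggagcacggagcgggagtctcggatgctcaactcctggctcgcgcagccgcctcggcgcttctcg
Adrb1: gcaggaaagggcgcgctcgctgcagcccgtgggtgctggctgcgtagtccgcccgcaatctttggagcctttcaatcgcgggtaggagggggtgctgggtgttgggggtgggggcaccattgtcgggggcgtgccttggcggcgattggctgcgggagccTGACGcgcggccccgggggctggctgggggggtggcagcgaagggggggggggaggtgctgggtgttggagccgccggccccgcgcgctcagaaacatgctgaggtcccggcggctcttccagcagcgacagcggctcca

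The largest ratio among the measured members was that of Akap2. It encodes an anchoring protein that ties protein kinase A to actin and membrane structures (chromosome 4, 57754967 to 57909856). It had 3608 reads (660 RPM) in MHC403 and 660 reads (120.4 RPM) in WT, 5.48-fold (5.04 to 5.96) higher. It remained past 2-fold with median-of-ratios scaling, at a log2 ratio of 1.91. Among the reads of all 16 anchoring protein genes, Akap2 took 58.1% in MHC403 (56.8 to 59.3) and 25.3% in WT (23.6 to 27). Without Akap2 the family had 2606 reads in MHC403 and 1951 in WT, a ratio of 1.34 (1.26 to 1.42) that falls below 1 with median-of-ratios scaling. The table lists 4 starts for Akap2 and 1 read count over all of them. The neighbouring entry Palm2, whose gene body overlaps that of Akap2 but whose 5′ windows do not, had 84 reads in MHC403 and 41 in WT.

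In RefSeq the gene is joined with Palm2 into a locus with 5 promoters. The last pair of these lies 9314 bases apart, the same distance as between a pair of the Akap2 starts in the deposited table, and both are printed for that reason. The first (chr4:57844998-57845297, GRCm38.p6, plus strand) holds no CRE core, and the second (chr4:57854312-57854611, plus strand) holds 1, in capitals, at position -222 relative to the start. The first has 9 CG dinucleotides and the second 3, against a median of 7 over all promoters in the table. Which of these starts the additional reads came from is not given by a count per gene.
Akap2, upstream start: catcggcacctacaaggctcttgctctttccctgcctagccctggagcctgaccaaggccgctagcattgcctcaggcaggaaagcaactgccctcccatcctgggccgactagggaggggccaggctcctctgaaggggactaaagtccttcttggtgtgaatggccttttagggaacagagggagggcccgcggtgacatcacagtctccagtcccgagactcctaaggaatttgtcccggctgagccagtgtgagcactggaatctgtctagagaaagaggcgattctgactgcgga
Akap2, downstream start: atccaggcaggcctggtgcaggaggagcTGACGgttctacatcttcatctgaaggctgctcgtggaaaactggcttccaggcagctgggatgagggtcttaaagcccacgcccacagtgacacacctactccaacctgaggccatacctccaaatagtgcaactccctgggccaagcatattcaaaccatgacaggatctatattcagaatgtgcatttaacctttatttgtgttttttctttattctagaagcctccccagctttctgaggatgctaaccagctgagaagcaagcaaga

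Of the anchoring proteins 9 were measured, Akap2 included, with 3 at least 2-fold higher (beside 26.1% of all measured entries), none lower and 6 within 2-fold. With median-of-ratios scaling 1 was higher and 1 lower, beside 10.9% and 7.59% of all measured entries. Akap13, a large scaffold that is also an exchange factor for RhoA, had 791 reads in MHC403 and 384 in WT, 2.06-fold (1.83 to 2.34) higher. Akap12, also called gravin, a scaffold at the cell membrane, had 336 in MHC403 and 154 in WT, 2.19-fold (1.80 to 2.66) higher. Akap11 was just below the threshold, with 101 reads in MHC403 and 53 in WT and a ratio of 1.91 (1.36 to 2.72). Akap1, which anchors the kinase to the outer mitochondrial membrane (chromosome 11, 88692106 to 88725900), had 323 reads in MHC403 and 452 in WT, 1.40-fold (1.21 to 1.62) lower. It was the only measured anchoring protein with an interval below 1, and its log2 ratio was -1.03 with median-of-ratios scaling.

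Anchoring proteins with known places at the nucleus and the calcium release machinery were within 2-fold. Akap6, which organises signalling at the nuclear envelope and the ryanodine receptor of muscle, had 328 reads in MHC403 and 286 in WT, a ratio of 1.15 (0.978 to 1.35). Akap9, a centrosome and Golgi scaffold that also binds the potassium channel KCNQ1, had 170 in MHC403 and 157 in WT, a ratio of 1.09 (0.868 to 1.36). With median-of-ratios scaling the log2 ratio was -0.35 for Akap6 and -0.43 for Akap9. Akap7, whose protein binds phospholamban, had 36 in MHC403 and 39 in WT. Akap8 and Akap8l, nuclear proteins, had ratios of 1.36 (1.14 to 1.62) and 1.11 (0.890 to 1.38), but each overlaps a second entry of nearly the same gene, so their reads are listed more than once. Akap5, the anchor of the beta receptor and L-type calcium channel complex, was under the minimum. It had 2 reads in MHC403 and 12 in WT, a ratio of 0.167 (0.0182 to 0.750).

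**Figure D4:**
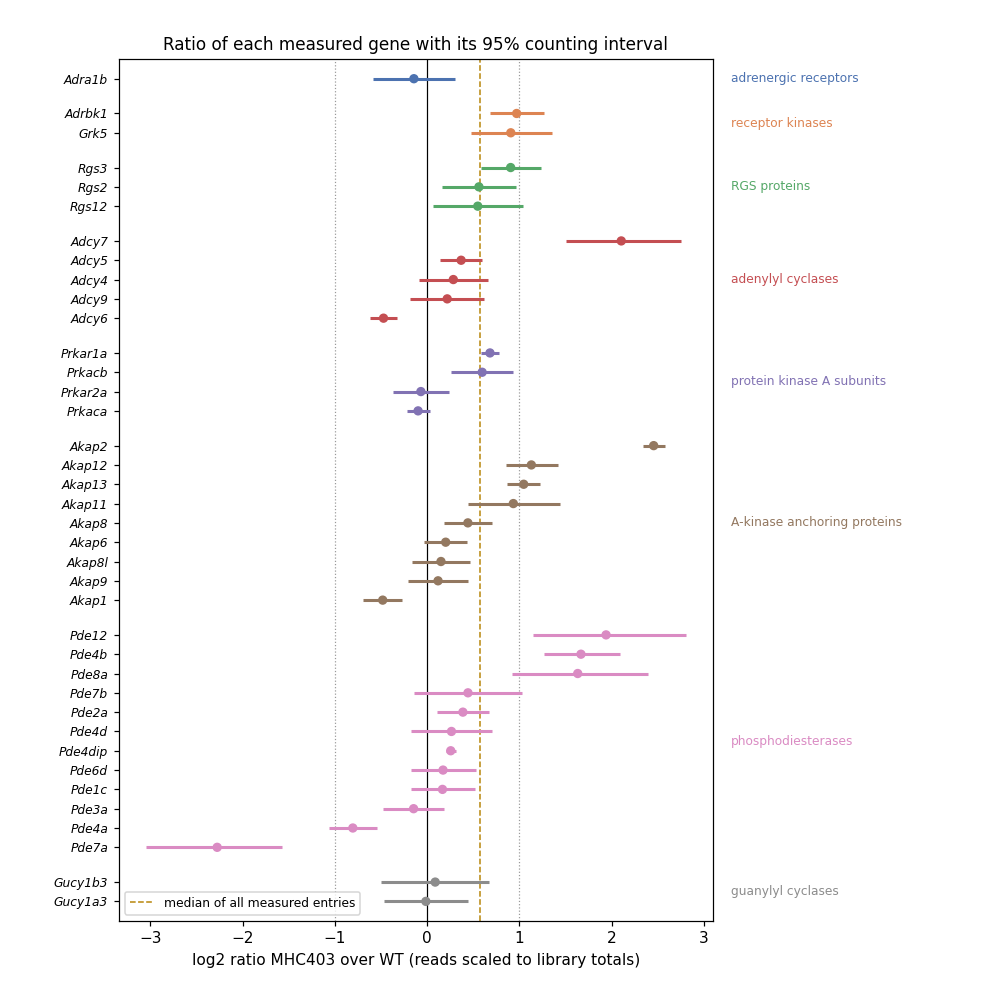
Log2 ratio MHC403 over WT of reads scaled to library totals (horizontal axis) for the 38 measured members, grouped by family; points are ratios, lines are exact 95% counting intervals, dotted lines mark 2-fold and the dashed line marks the median of all measured entries at 0.57. Akap2 at 2.45 and Adcy7 at 2.10 stand farthest to the right and Pde7a at -2.27 farthest to the left.

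The phosphodiesterases of cAMP and cGMP, 21 genes without the entries that share the name only, had 1323 reads in MHC403 and 1222 in WT, a ratio of 1.09 (1.0 to 1.17). Within this sum the isoforms differed. The Pde4 genes, which encode cAMP-specific enzymes that act near beta receptors and the ryanodine receptor, had 513 reads in MHC403 and 505 in WT, a ratio of 1.02 (0.899 to 1.15). Pde4b (chromosome 4, 101760346 to 102279867) had 209 reads in MHC403 and 66 in WT, 3.17-fold (2.40 to 4.25) higher. Pde4a (chromosome 9, 20970158 to 21017692) had 197 in MHC403 and 345 in WT, 1.75-fold (1.46 to 2.09) lower, and passed 2-fold with median-of-ratios scaling at a log2 ratio of -1.35. Pde4d had 97 reads in MHC403 and 81 in WT, a ratio of 1.20 (0.884 to 1.63).

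The quotient of Pde4b over Pde4a reads was 1.06 in MHC403 and 0.191 in WT, a 5.55-fold (3.95 to 7.82) difference that is free of the scaling. Pde4a took 38.4% of Pde4 reads in MHC403 (34.2 to 42.8) and 68.3% in WT (64.1 to 72.4). Pde4b took 40.7% in MHC403 (36.5 to 45.1) and 13.1% in WT (10.3 to 16.3). The share of Pde4d overlapped between the libraries, at 18.9% in MHC403 (15.6 to 22.6) and 16.0% in WT (12.9 to 19.5).

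Pde7a, a cAMP-specific enzyme (chromosome 3, 19125918 to 19211322), had 20 reads (3.66 RPM) in MHC403 and 97 (17.7 RPM) in WT, 4.84-fold (2.97 to 8.27) lower. Its paralog Pde7b had 61 reads in MHC403 and 45 in WT, a ratio of 1.36 (0.909 to 2.04). With median-of-ratios scaling both paralogs were below 1, at a log2 ratio of -0.11 for Pde7b. The quotient of Pde7a over Pde7b was 0.328 in MHC403 and 2.16 in WT. Pde8a, a cAMP enzyme of high affinity (chromosome 7, 88358690 to 88478508), had 68 reads in MHC403 and 22 in WT, 3.10-fold (1.89 to 5.26) higher.

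Among the other measured phosphodiesterases, Pde3a, Pde2a and Pde1c were within 2-fold. Pde3a, the cGMP-inhibited enzyme that is the target of milrinone, had 146 reads in MHC403 and 162 in WT, a ratio of 0.903 (0.717 to 1.14), and a log2 ratio of -0.69 with median-of-ratios scaling. Pde2a, which cGMP stimulates, had 244 in MHC403 and 187 in WT, 1.31-fold (1.08 to 1.59) higher with library totals and below 1 with median-of-ratios scaling. Pde1c, a calmodulin-dependent enzyme of heart muscle, had 150 in MHC403 and 134 in WT, a ratio of 1.12 (0.883 to 1.43). Among those under the minimum, Pde5a, the target of sildenafil, had 15 reads in MHC403 and 10 in WT, and Pde9a, which breaks down cGMP, 18 in each library. Pde1b had 23 reads in MHC403 and 5 in WT, and Pde10a 24 in MHC403 and 6 in WT.

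Some entries carry the name without being cyclic nucleotide phosphodiesterases. Pde4dip, or myomegalin, a scaffold that binds Pde4d, had 6293 reads (1151 RPM) in MHC403 and 5284 (964 RPM) in WT, a ratio of 1.19 (1.15 to 1.24). Pde6d, a carrier of prenylated proteins, had a ratio of 1.13 (0.883 to 1.44). Pde12, a mitochondrial enzyme that trims RNA (chromosome 14, 27483603 to 27489332), had 65 reads in MHC403 and 17 in WT, 3.83-fold (2.22 to 6.97) higher.

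For soluble guanylyl cyclase, the receptor of nitric oxide, no difference was detectable with library totals. Its alpha subunit Gucy1a3 had 84 reads in MHC403 and 85 in WT, a ratio of 0.990 (0.724 to 1.36), and its beta subunit Gucy1b3 53 in MHC403 and 50 in WT, a ratio of 1.06 (0.708 to 1.60). The intervals leave room for differences of those sizes. With median-of-ratios scaling the log2 ratios were -0.56 for Gucy1a3 and -0.46 for Gucy1b3. The 5 membrane guanylyl cyclases named Gucy2, known mainly from sensory tissues and gut, had 3 reads in MHC403 and 1 in WT. The cGMP-dependent kinase Prkg1 had 42 reads in MHC403 and 15 in WT, 2.81-fold (1.52 to 5.45) higher and under the minimum, and an entry for its other start, Prkg1b, had 5 in MHC403 and 3 in WT. Prkg2 had none in either library.

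Below the minimum, 13 members had 20 to 49 reads in the higher library. Of these 7 were at least 2-fold higher in MHC403 (Adcy3, Pde10a, Pde1b, Prkg1, Rgs10, Rgs17 and Rgs19) and 6 were within 2-fold (Adra1a, Adrb1, Akap10, Akap7, Rgs4 and Rgs6). The share over all entries in this range is not given here, so the count is not read as a result about the members. The higher library also sets which genes fall in this range, and the 7 are given as values only.

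The authors' deposited table also holds a start-site score for each gene, a whole number from the authors' comparison of start use, by a formula not given in the sources used here. In the authors' deposited table a score above 0 was held by 14 of the 38 measured members (36.8%, beside 36.2% of all measured entries). It was also held there by 32.8% of all measured entries with 1 listed start, beside 42.3% of those with 2 or more. A score above 0 thus does not require more than 1 listed start. The highest score among members in the authors' deposited table was 61 for Akap2, followed by 39 for Akap1, 30 for Rgs3 and 28 for Pde1c. Akap2 and Akap1 lay above 32, the 90th percentile of positive scores over all measured entries in the authors' deposited table. In the same deposited table by the authors, Pde4d had 16, Adcy6 14 and Adra1b 11, whereas Pde4b and Adcy7, with 5 listed starts each, had 0.

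Genes of the same pathways that are not members were taken from a list of 114 genes in 8 groups. Of these 65 were measured, 19 were at least 2-fold higher (29.2%, beside 26.1% of all measured entries), none was lower and 46 were within 2-fold. With median-of-ratios scaling 8 of them were higher and 4 lower, beside 10.9% and 7.59% of all measured entries. Upstream, 5 of 14 measured G protein genes were at least 2-fold higher. Gnao1, the alpha subunit of Go, had 353 reads in MHC403 and 57 in WT, 6.21-fold (4.68 to 8.36) higher. The inhibitory alpha subunit Gnai2 had 2148 in MHC403 and 853 in WT, 2.52-fold (2.33 to 2.74) higher, and Gnai3, Gna13 and the beta subunit Gnb1 were 2.51-fold, 2.52-fold and 2.19-fold higher. Of these Gnao1 alone stayed past 2-fold with median-of-ratios scaling. Arrb2, or beta-arrestin 2, which uncouples receptors, had 180 reads in MHC403 and 55 in WT, 3.28-fold (2.41 to 4.52) higher, while Arrb1 had a ratio of 1.58 (1.13 to 2.23) and the receptor kinase Adrbk2 one of 2.00 (1.59 to 2.52), just under 2-fold.

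Downstream of cAMP, Popdc3, of a family of cAMP-binding membrane proteins, had 204 reads in MHC403 and 45 in WT, 4.54-fold (3.28 to 6.42) higher. Pkia, an inhibitor of the kinase's catalytic subunit, had a ratio of 1.52 (1.33 to 1.73), and Rapgef3, the exchange factor Epac, 1.55 (1.16 to 2.07). Pkig, another inhibitor of the kinase, named after its value was seen, had 184 reads in MHC403 and 247 in WT, a ratio of 0.747 (0.614 to 0.907). Of 11 measured genes of cAMP-responsive transcription 5 were at least 2-fold higher, beside 26.1% of all measured entries. They were the immediate early gene Fos, at 9.81-fold (5.65 to 18.4), Nr4a1 at 2.64-fold (2.19 to 3.18), the coactivators Crtc3 at 2.30-fold (1.72 to 3.10) and Crebbp at 2.02-fold (1.60 to 2.58), and Atf1 at 2.01-fold (1.58 to 2.58). Of these Fos alone was past 2-fold higher with median-of-ratios scaling. The coactivator Ppargc1a, at a ratio of 0.605 (0.488 to 0.747), was then past 2-fold lower.

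Of 14 measured substrates of protein kinases A or G 13 were within 2-fold. The other, the actin regulator Vasp, was 2.50-fold (2.02 to 3.12) higher, beside 26.1% of all measured entries past 2-fold higher. With median-of-ratios scaling Vasp was within 2-fold, and Pln, Tnni3 and Phkb were at least 2-fold lower, as were 7.59% of all measured entries. Phospholamban, Pln, the brake on the calcium pump that the kinase releases, had 4578 reads in MHC403 and 8938 in WT, 1.95-fold (1.88 to 2.02) lower. The small heat shock protein Hspb6 and the calcium channel regulator Rrad had ratios of 1.89 (1.78 to 2.01) and 1.99 (1.82 to 2.18). On the cGMP side, Npr1, the receptor of atrial and brain natriuretic peptides, had 164 reads in MHC403 and 101 in WT, 1.63-fold (1.26 to 2.11) higher, beside ratios of 30.8 and 8.69 for the peptides Nppa and Nppb. Endothelial nitric oxide synthase, Nos3, had 233 in MHC403 and 105 in WT, 2.22-fold (1.76 to 2.83) higher with library totals and within 2-fold with each of the 3 other scalings.

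Of 3 measured genes of catecholamine handling, Maoa, which oxidises noradrenaline, had 62 reads in MHC403 and 17 in WT, 3.66-fold (2.11 to 6.67) higher. Maob had a ratio of 0.891 (0.707 to 1.12). Of 5 measured receptors that couple to Gs or Gi or modify such receptors, Ramp3 was 3.45-fold (2.02 to 6.20) higher and 4 were within 2-fold. Among the 4 were the adenosine receptor Adora1 at 1.56 (1.18 to 2.08), Ramp2 at 1.71 (1.43 to 2.04) and Calcrl at 1.92 (1.27 to 2.96). The shares at least 2-fold higher, 33.3% for catecholamine handling and 20% for these receptors, stand beside 26.1% of all measured entries.

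Markers of several cell types also differed between the libraries. Their counts past 2-fold are with library totals. Of all measured entries 26.1% were then at least 2-fold higher and 2.43% at least 2-fold lower. The 10 cardiomyocyte markers, all measured, summed to 260937 reads in MHC403 and 417047 in WT, with 3 at least 2-fold lower, 7 within 2-fold and none at 0. With library totals they did not move as 1 group: Actc1 had a ratio of 1.85, Tnnt2 1.05 and Ryr2 1.01. With median-of-ratios scaling Tnnt2 and Ryr2 fall below 1, while Actc1 stays above 1. The largest differences in reads were those of Myh6 and Myl2. Myh6 had 55171 reads in MHC403 and 132965 in WT, and Myl2 36100 in MHC403 and 86531 in WT. The 7 listed macrophage markers summed to 3379 reads in MHC403 and 1064 in WT, 3.18-fold (2.97 to 3.41) higher, with 7 of 7 at least 2-fold higher. Fibroblast markers summed to 16531 reads in MHC403 and 2536 in WT, with 5 of 7 at least 2-fold higher. The collagen genes Col1a1, Col1a2 and Col3a1 had ratios of 26.2, 15.3 and 19.8. The other fibroblast markers had smaller ratios, at 3.51 for Lum, 2.25 for Pdgfra, 1.79 for Dcn and 1.79 for Tcf21. Endothelial markers summed to 5430 in MHC403 and 4317 in WT, with 1 of 7 higher, smooth muscle markers to 1762 in MHC403 and 1074 in WT, with 2 of 4 measured higher, and pericyte markers to 2219 in MHC403 and 2465 in WT, with 1 of 6 higher and 1 lower. Lymphocyte markers summed to 27 reads in MHC403 and 13 in WT, with Cd3d at 0 in both. Markers of sympathetic neurons, in which noradrenaline is made, summed to 16 reads in MHC403 and 12 in WT, with Slc6a2 at 0 in both, and adipocyte markers to 5 in MHC403 and 4 in WT. Adcy7, Pde4b, Rgs10 and Rgs19, genes that leukocytes express, were higher, as were the macrophage markers, but Rgs10 and Rgs19 were under the minimum. Adcy6 and Akap1 were lower, as were the mitochondrial reads and the sum of cardiomyocyte markers, in which Myh6 and Myl2 differed most in reads. Other members of heart muscle were not lower with library totals, such as Adcy5 at a ratio of 1.29 and Akap6 at 1.15. The genes of both pairings were picked from many members. Pde7a, with the lowest ratio of the measured members, was not assigned to either, and which cells express each gene was not measured here. The part of cell makeup in these results was not tested.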

How the data were processed

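RNA from hearts of MHC403/+ and WT mice was measured by 5′RNA-seq, 1 pooled library per genotype. Per the submitters' processing notes, TopHat 1.0.14 and the mm9 build were used; the sources used here do not name the counting program or its use of strand. The deposited table holds, per the file headers, reads (raw counts for each gene entry) and normalized reads. The authors' normalized values are RPM of the column total, as a recomputation found to within 4.94e-06. The authors also deposited a fold (a ratio of normalized reads), a p-value from a test not given in the sources used here, neither of which was used, and a start-site score.

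Ratios of counts were scaled to column totals, with exact intervals conditional on the reads of a gene in both libraries (SciPy 1.17.1, tested on simulated data). Entries reaching 50 reads in either library were measured, and a 2-fold point estimate was the threshold. No test was made, since each genotype had 1 library. Alternatives were median-of-ratios and TMM (edgeR 4.0.16) scaling, totals without the mitochondrial chromosome, other read minimums and fold thresholds, and leaving out entries with overlapping 5′ windows. Every measured member could be named, and of the wider pathway the genes past 2-fold and up to 4 per group whose interval bound lay farthest from 1. Members with 20 to 49 reads in the higher library could be named with their reads. Some members with fewer reads, such as Akap5, Adra2b, Rgs7 and Prkar1b, are named outside that rule. Members and lists were chosen with earlier results of these data known, and the within-family shares and quotients after their values were seen. Promoters came from RefSeq on GRCm38.p6, matched by symbol or synonym; no coordinates were converted between builds. Values of some single genes in these lists are not reported here.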

Additional observations from a re-analysis of the deposited data

How the results depend on the processing

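No paired analysis was possible because each genotype had 1 library, and for the same reason no library could be left out. Below, no filter means that all entries with reads in both libraries were kept, and entries without reads in either one were left out. The 7 members at least 2-fold higher became 5 with each of the 3 other scalings, 14 with a minimum of 20 reads, 4 with 200, 22 with no filter on low counts, 4 where the whole interval had to pass 2-fold (Adcy7, Akap2, Pde12 and Pde4b), 13 at a 1.5-fold threshold, and 5 with at least 100 reads summed over both libraries, an alternative chosen after seeing the data. The 1 lower member became 4 with median-of-ratios or TMM scaling, 2 with totals without the mitochondrial chromosome, 0 with a minimum of 200 reads, 3 with no filter and 2 at 1.5-fold. The median log2 ratio of the members, 0.33, became -0.22 with median-of-ratios or TMM scaling, 0.032 without the mitochondrial chromosome, 0.37 with a minimum of 20 reads, 0.41 with 200, 0.44 with no filter and 0.27 with 100 summed reads. Leaving out overlapping entries changed neither count nor the median. Families with a higher member numbered 3, or 5 with a minimum of 20 reads and 8 with no filter, and families with a lower member 1, or 3 with median-of-ratios or TMM scaling, 0 with a minimum of 200 reads and 3 with no filter. Of the wider pathway 19 genes were higher, or 8 with median-of-ratios or TMM scaling, 12 with a minimum of 200 reads and 31 with no filter. None was lower, or 4 with each of the 3 other scalings (Phkb, Pln, Ppargc1a and Tnni3, named after their values were seen), 2 with a minimum of 20 reads and 3 with no filter. Changes with the minimum follow from the number of genes kept, and those with the scaling from its shift of all ratios alike. Shares over all entries are not given for the other minimums and thresholds, so those counts are not read as results about the members.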
